A study of Mus musculus with 4 samples.

Results

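The genes described here are 7 markers of bipolar cells, the interneurons of the retina that carry signals from rod and cone photoreceptors to amacrine and ganglion cells. They were chosen by name as known markers, by a rule with no threshold on a measured value: *Vsx1*, *Trpm1*, *Prkca*, *Cabp5*, *Pcp2*, *Gng13* and *Isl1*. Of these 7 genes, 6 were measured among the 14924 genes of the table, and *Vsx1* was not analysed here. The tissue was whole mouse lens, so these are retinal genes measured in an organ that holds no retinal neurons. RNA-seq was carried out on lenses of 1-month-old S100A4-/- mice, a knockout line kept on a C57BL/6J background, and of their wild type (WT) littermates. Each group had 2 libraries, each made from a pool of 6 to 12 lenses, so a library averages over several animals and the replicate error below is that between pools. The libraries held 81602367 and 74108017 reads assigned to genes in S100A4-/- lenses and 70253985 and 68038158 in WT lenses. The targeted gene, *S100a4*, had a normalized read count of 14419.76 and 14384.80 in WT lenses and of 14.56 and 18.24 in S100A4-/- lenses, as the labels state. Lens markers dominated all 4 libraries, with the alpha crystallin *Cryaa* the most abundant of the 12 tested (by normalized read count, with no correction for gene length, here and for other lists) at a mean normalized read count of 12908625.7, and none of the 12 differed between genotypes at an adjusted p of at most 0.05.

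In the retina, ON bipolar cells read glutamate from photoreceptors with the receptor mGluR6, which signals through a G protein cascade to close the cation channel TRPM1. *Prkca*, protein kinase C alpha, is the usual label of rod bipolar cells. *Pcp2*, also known as L7, is a GoLoco protein that binds G protein alpha subunits and is expressed in ON bipolar cells and cerebellar Purkinje cells, and *Gng13* encodes a G protein gamma subunit of the same cascade that also serves taste and olfactory cells. *Cabp5* encodes a calmodulin-like calcium-binding protein of rod and some cone bipolar cells. *Isl1* and *Vsx1* encode homeodomain transcription factors, of ON and of cone bipolar cells respectively, and *Isl1* also serves amacrine and ganglion cells. Outside the retina *Trpm1* is expressed by melanocytes, and *Prkca* is expressed in many tissues.

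The stretches upstream of 4 of these genes are shown because their genes behaved differently in the libraries: *Trpm1* and *Pcp2* were the members higher in S100A4-/- lenses by the test, and *Cabp5* and *Prkca* were not. Each sequence ends at or just before a RefSeq start site and leaves out every base that lies in an annotated exon (GRCm38.p6, 5′ to 3′ along the gene). Capitals mark the letters of 3 motifs searched on both strands: TAATCC, read GGATTA on the other strand and known as a site of the OTX and CRX homeodomain family, TAATTA, a general homeodomain core that reads the same on both strands, and CAGATG, an E-box read CATCTG on the other strand. The *Trpm1* stretch is chr7:64153585-64153834 on the plus strand, that of *Pcp2* is chr8:3625283-3625419 on the minus strand, that of *Cabp5* is chr7:13397905-13398131 on the plus strand and that of *Prkca* is chr11:108343929-108344138 on the minus strand. The *Pcp2* stretch lies within the annotated gene. *Trpm1* and *Pcp2* have several start sites, and the stretch shown for each holds a motif that its other start sites lack.
Trpm1: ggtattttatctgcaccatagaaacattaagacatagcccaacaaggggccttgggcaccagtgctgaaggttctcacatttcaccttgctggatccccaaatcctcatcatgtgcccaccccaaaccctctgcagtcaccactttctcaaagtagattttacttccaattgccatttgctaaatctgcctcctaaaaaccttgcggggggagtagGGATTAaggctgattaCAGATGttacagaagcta
Pcp2: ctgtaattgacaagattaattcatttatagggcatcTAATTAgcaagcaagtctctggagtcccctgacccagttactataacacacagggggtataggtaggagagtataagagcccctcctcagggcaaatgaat
Cabp5: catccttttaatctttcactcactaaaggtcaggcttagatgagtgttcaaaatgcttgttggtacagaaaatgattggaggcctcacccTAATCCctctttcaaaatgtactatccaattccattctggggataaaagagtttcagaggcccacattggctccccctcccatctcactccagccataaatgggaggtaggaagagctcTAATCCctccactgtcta
Prkca: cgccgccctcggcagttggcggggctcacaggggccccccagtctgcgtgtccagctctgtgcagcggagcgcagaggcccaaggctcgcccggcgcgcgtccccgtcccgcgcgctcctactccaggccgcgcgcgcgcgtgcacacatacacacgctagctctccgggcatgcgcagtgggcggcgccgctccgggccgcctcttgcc

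The *Trpm1* stretch held GGATTA beginning 34 bases upstream of the start site and CAGATG beginning 18 bases upstream. That of *Pcp2* held TAATTA 101 bases upstream, and that of *Cabp5* held TAATCC at 160 and at 41 bases upstream. The 250 bases upstream of the *Isl1* start site also held TAATCC, 177 bases upstream. None of the 3 motifs was found in the 250 bases upstream of *Prkca* or of either *Gng13* start site, and the matches did not overlap one another. Over the 250 bases upstream of 32851 RefSeq start sites, TAATCC or its complement was present in 6.25%, TAATTA in 4.84% and CAGATG or its complement in 14.4%. RefSeq lists a second start site for *Trpm1*, whose upstream 250 bases held none of the motifs, and 3 other start sites for *Pcp2*, of which 2 had CAGATG and 1 had none. TAATCC was thus found upstream of *Trpm1*, which passed the test on its adjusted p, and of *Cabp5* and *Isl1*, which did not. A match is a string of letters and not a measured binding site.

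Differential expression was tested with limma on log2(normalized read count + 1) over 14780 genes, and a gene was called differentially expressed at a difference of at least 2-fold and a Benjamini-Hochberg adjusted p of at most 0.05. By this rule 1 of the 6 members, *Pcp2*, was called higher in S100A4-/- lenses and none lower. Over all genes tested 3.72% were called in either direction and 3.65% were called higher. Without the fold threshold 2 of the 6 members passed, *Trpm1* and *Pcp2*, both higher, where 6.96% of all genes passed in either direction and 5.62% passed as higher. The libraries of the 2 genotypes did not overlap for any of the 6 members, which was also so for 46.9% of all genes. Of the 6, 5 were higher in both S100A4-/- libraries and *Cabp5* was lower in both. The median log2 fold change of the 6 was 0.84, and it was -0.005 over all genes tested. These counts describe the members and are no support for a group effect, since *Isl1* passed the filter on low values only through an S100A4-/- library, where it reached 10.13. At an unadjusted p under 0.05, limma found 4 of the 6 members, and edgeR and DESeq2 found 3 each. No share of all genes at that threshold is given here, so these counts describe the members only. With edgeR and with DESeq2 no member met the rule with both thresholds, where 564 of 14780 and 427 of 14924 genes did. With each of these tools 1 member passed on the adjusted p alone, and the share of all genes that did so is not given here.

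**Figure D1:**
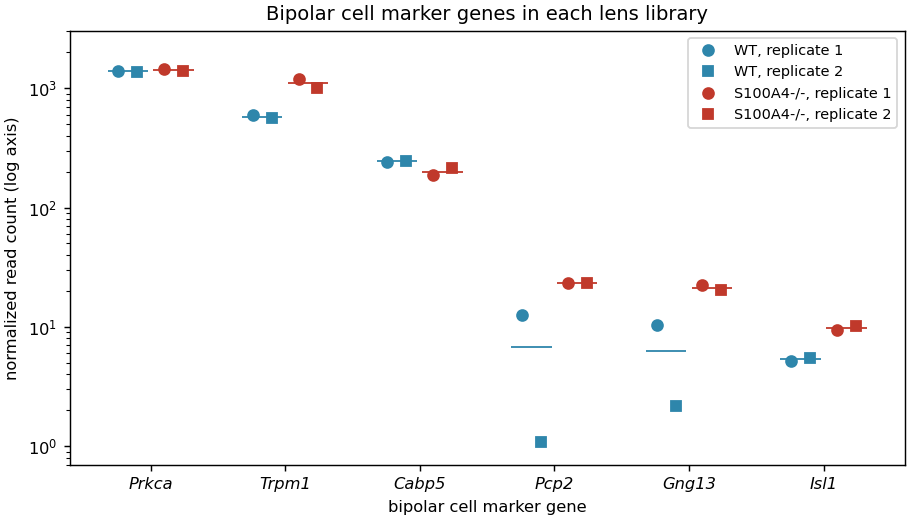
Normalized read count (log axis) of the 6 measured bipolar cell markers in each of the 4 lens libraries, with a bar at each group's mean. The S100A4-/- points of Trpm1, Pcp2, Gng13 and Isl1 lie above both WT points, those of Cabp5 lie below, those of Prkca lie beside them, and the WT libraries are far apart for Pcp2 (12.53 and 1.09) and Gng13 (10.44 and 2.19).

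*Trpm1*, the cation channel at the end of the mGluR6 cascade, was the member with the clearest difference. Its gene spans chr7:64153835-64269775 on the plus strand (GRCm38). S100A4-/- libraries 1 and 2 gave a normalized read count of 1186.05 and 1005.38 (1385 and 992 reads), against 593.08 and 561.68 (568 and 513 reads) in WT libraries 1 and 2. Both S100A4-/- libraries were far above both WT libraries, and the S100A4-/- pair was itself spread by more than the WT pair. The group means were 1095.72 ± 127.75 and 577.38 ± 22.2 (SD, n = 2 each), a ratio of 1.90. The log2 fold change was 0.92 (SE 0.085, 95% interval 0.75 to 1.09) with an adjusted p of 1.08e-10 in limma. This is just under 2-fold, so that *Trpm1* was significantly higher without meeting the fold threshold. With limma fitted without a mean-variance trend its adjusted p was 0.0958. Without S100A4-/- replicate 2 the log2 fold change was 1.04 and the threshold was met, and without S100A4-/- replicate 1 it was 0.80.

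*Trpm1* was already present in WT lenses at 513 reads or more a library, and melanocytes express it too. The other 8 markers of melanocytes and pigment cells that were tested included 6 that were called higher and none lower, with a median log2 fold change of 2.36. *Mlana* and *Slc24a5* passed the filter only through S100A4-/- libraries, and the 6 others had 4 called and a median of 1.85. The summed normalized read count of the 8 was 2352.4 and 2375.6 in S100A4-/- libraries and 1409.6 and 1449.6 in WT libraries, a ratio of 1.65. The most abundant of them, *Mitf*, a transcription factor of melanocytes, was at 659.39 and 617.22 against 722.55 and 693.07, with an adjusted p of 0.381 in limma. *Dct*, the melanin enzyme dopachrome tautomerase, rose from 31.32 and 44.89 in WT to 581.46 and 581.74, and *Mlana* rose from 1.04 and 2.19 to 23.98 and 26.35. No tested marker of this list was at 0 in any library. Without S100A4-/- replicate 1 the called number of these 8 was 2, *Dct* and *Pmel*, and without S100A4-/- replicate 2 it was 3. The part of pigment cells in the *Trpm1* difference was not tested. Among 5 other TRPM channels none was called in limma on all 4 libraries with a pseudocount of 1 and no block on the replicate number. None had an adjusted p of at most 0.05 in that fit. The most abundant, *Trpm3*, was at 10731.84 and 10081.19 in S100A4-/- against 10935.42 and 11354.11 in WT libraries, with an adjusted p of 0.227 in limma. *Trpm5*, a channel of taste cells, was at 35.97 and 16.22 against 5.22 and 7.66, with an adjusted p of 0.0555 in limma. *Trpm5* was called by edgeR (adjusted p 0.0314). It was also called by limma with a pseudocount of 5 (adjusted p 0.0374) and with the replicate number as a block (adjusted p 0.033). With 1 library left out its log2 fold change ran from 1.23 to 2.33. Like *Trpm6* it passed the filter on low values only through S100A4-/- libraries.

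*Pcp2* was the one member called, on very few reads. Its gene is at chr8:3623371-3625545 on the minus strand. S100A4-/- libraries 1 and 2 gave a normalized read count of 23.12 and 23.31 (27 and 23 reads), against 12.53 and 1.09 (12 and 1 reads) in WT libraries 1 and 2. The S100A4-/- libraries agree within 1 read's worth, while the WT libraries differ from each other by more than WT replicate 1 differs from the S100A4-/- libraries. The group means were 23.22 ± 0.13 and 6.81 ± 8.09 (SD, n = 2 each), a ratio of 3.41. The log2 fold change was 2.19 (SE 0.69, 95% interval 0.78 to 3.59) with an adjusted p of 0.0479 in limma. The value turned on WT replicate 2. Without it the log2 fold change was 0.84 with an adjusted p of 0.536 in limma, and without WT replicate 1 it was 3.53 with an adjusted p of 0.000365. The call was also lost without S100A4-/- replicate 1 (2.19, adjusted p 0.417 in limma) and without S100A4-/- replicate 2 (2.18, adjusted p 0.402). The 1 read of WT replicate 2 lies under a floor of 3 reads, which is worth 3.29 normalized reads in that library. Exons of *Pcp2* share positions with the oppositely oriented *Pet100*, whose normalized read count was 543.79 and 523.97 in S100A4-/- and 582.64 and 540.88 in WT libraries. The library kit keeps strand, but the strand setting of the counting is not given in the sources used here. Of the 7 other GoLoco and Purkinje cell proteins tested none was called or had an adjusted p of at most 0.05 in limma, with log2 fold changes from -0.12 for *Rap1gap* to 0.04 for *Pcp4l1*.

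*Gng13*, the gamma subunit of the cascade, had a pattern like that of *Pcp2* on as few reads. It lies at chr17:25717171-25719406 on the plus strand. S100A4-/- libraries 1 and 2 gave a normalized read count of 22.27 and 20.27 (26 and 20 reads), against 10.44 and 2.19 (10 and 2 reads) in WT libraries 1 and 2. Both S100A4-/- libraries were higher than both WT libraries, and WT replicate 2 was again the lowest. The group means were 21.27 ± 1.41 and 6.32 ± 5.83 (SD, n = 2 each), a ratio of 3.37. The 2 reads of WT replicate 2 lie under the floor of 3 reads, as did the 1 read of *Pcp2* there. The log2 fold change was 1.88 (SE 0.65, 95% interval 0.57 to 3.20) with an adjusted p of 0.077 in limma, so the difference did not pass. With the replicate number as a block *Gng13* did pass (adjusted p 0.0415 in limma), though 2 pairs could not establish a pairing. The log2 fold change was 2.80 without WT replicate 1 and 0.96 without WT replicate 2. Exons of *Gng13* share positions with those of *Chtf18* on the other strand, at 41.96 and 27.36 in S100A4-/- and 29.24 and 36.13 in WT libraries. Among the 10 other G protein gamma genes tested, *Gngt1* of rods and *Gngt2* of cones were called higher. *Gngt1* was at 280.03 and 291.89 in S100A4-/- against 59.52 and 76.64 in WT libraries, with an adjusted p of 1.24e-11 in limma. *Gngt2* had 3 and 2 reads in the WT libraries and passed the filter only through the S100A4-/- libraries, and it was not called with either S100A4-/- library left out or by DESeq2, while *Gngt1* was. Without WT replicate 1 the called number of these 10 was 3. The abundant members of that family, *Gng5*, *Gng2* and *Gng12*, had log2 fold changes of -0.08, -0.14 and -0.07, and none of these passed.

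*Isl1*, the homeodomain factor, was close to the limit of detection. It lies at chr13:116298281-116309689 on the minus strand. S100A4-/- libraries 1 and 2 gave a normalized read count of 9.42 and 10.13 (11 and 10 reads), against 5.22 and 5.47 (5 and 5 reads) in WT libraries 1 and 2. The S100A4-/- libraries were higher by 5 or 6 reads, and the replicates of each genotype were close. The log2 fold change was 0.76 (SE 0.73, 95% interval -0.72 to 2.25) with an adjusted p of 0.653 in limma, so that a difference was not detectable at this depth. *Isl2*, its nearest relative, was at 17.13 and 25.34 in S100A4-/- against 31.32 and 36.13 in WT libraries, with an adjusted p of 0.402 in limma. Of 3 other LIM homeobox genes tested, *Lhx2* and *Lhx4* were called higher. *Lhx4* passed the filter on low values only through S100A4-/- libraries, and the 2 others had 1 called. DESeq2 and quantile normalization called *Lhx2* but not *Lhx4*. *Lhx2*, a factor of Müller glia, was at 143.87 and 128.71 against 35.50 and 32.85, with an adjusted p of 1.18e-07 in limma. *Lhx4* was not called with either S100A4-/- library or WT replicate 2 left out, which left 1 of the 3.

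*Prkca*, the rod bipolar label, was at nearly the same value in all libraries. It lies at chr11:107933387-108343928 on the minus strand. S100A4-/- libraries 1 and 2 gave a normalized read count of 1443.81 and 1396.59 (1686 and 1378 reads), against 1392.90 and 1374.10 (1334 and 1255 reads) in WT libraries 1 and 2. All 4 libraries were within a narrow range, and the lower S100A4-/- library was barely above the higher WT library. The log2 fold change was 0.04 (SE 0.066, 95% interval -0.10 to 0.17) with an adjusted p of 0.837 in limma. With at least 1255 reads in each library this was the most precise estimate of the 6, and its interval lies far inside 2-fold. Among 7 other protein kinase C genes none was called, and none had an adjusted p of at most 0.05 in limma. *Prkcb* had the largest log2 fold change among them, 0.49, at 196.11 and 204.73 in S100A4-/- and 129.48 and 157.67 in WT libraries (adjusted p 0.058 in limma). The most abundant, *Prkci*, had a log2 fold change of -0.05.

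*Cabp5*, the calcium-binding protein, was the one member at lower values in S100A4-/- libraries. It lies at chr7:13398132-13408887 on the plus strand. S100A4-/- libraries 1 and 2 gave a normalized read count of 185.83 and 214.86 (217 and 212 reads), against 242.24 and 245.26 (232 and 224 reads) in WT libraries 1 and 2. Both S100A4-/- libraries were lower than both WT libraries, and the WT pair was closer together than the S100A4-/- pair. The group means were 200.34 ± 20.53 and 243.75 ± 2.13 (SD, n = 2 each), a ratio of 0.82. The log2 fold change was -0.29 (SE 0.14, 95% interval -0.57 to -0.003) with an adjusted p of 0.276 in limma, so the difference did not pass the adjustment. In the same family 6 other genes were tested. *Cabp4*, a calcium sensor of photoreceptor synapses, was called higher, at 43.67 and 42.57 against 9.40 and 3.28, with an adjusted p of 0.000277 in limma. It passed the filter only through S100A4-/- libraries, and with either of these left out it was not called. *Cabp2* was higher under 2-fold, at 672.24 and 614.18 in S100A4-/- against 445.85 and 420.44 in WT libraries (adjusted p 3.68e-05 in limma).

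**Figure D2:**
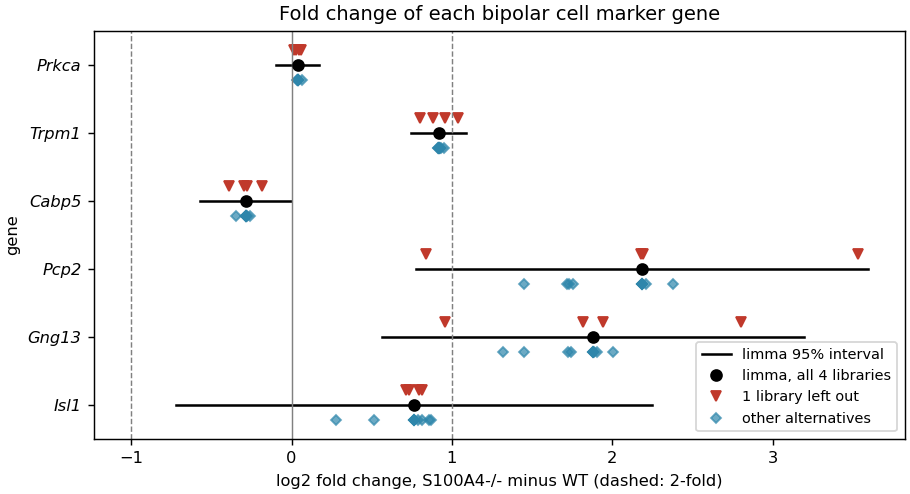
Log2 fold change (S100A4-/- minus WT) of each measured member in limma with its 95% interval (black), with 1 library left out (triangles) and under the other processing alternatives (diamonds), with dashed lines at 2-fold. The values of Prkca, Trpm1 and Cabp5 stay close together, while those of Pcp2 run from 0.84 to 3.53 and those of Gng13 from 0.96 to 2.80 depending on which WT library is left out.

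Per kilobase of exon, the WT normalized read count was 153.86 ± 1.48 for *Prkca*, 96.5 ± 0.84 for *Cabp5* and 39.16 ± 1.51 for *Trpm1* (SD, n = 2 each). It was 8.17 ± 7.55 for *Gng13*, 3.73 ± 4.42 for *Pcp2* and 1.35 ± 0.05 for *Isl1*, against a median of 66.71 over all genes with a known length. *Prkca* and *Cabp5* were therefore above the median lens gene in WT lenses, and the libraries of *Gng13* and *Pcp2* overlap. In S100A4-/- lenses the per-kilobase level was 157.94 ± 3.71 for *Prkca*, 79.31 ± 8.13 for *Cabp5* and 74.31 ± 8.66 for *Trpm1*, so that the last 2 overlapped. *Gng13* was at 27.51 ± 1.83, *Pcp2* at 12.70 ± 0.07 and *Isl1* at 2.47 ± 0.13, and the median over genes was 67.78. In these bulk samples more cells of a type and more RNA per cell cannot be told apart.

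For each member the 3 nearest genes by pattern were sought among genes with a mean normalized read count of at least 50, by the Euclidean distance between mean-centred log2 profiles over the 4 libraries. Those of *Trpm1* were *Gm22009*, *Fzd5* and *Fbxl16*, with distances of 0.056, 0.128 and 0.129. Those of *Pcp2* were *Cplx3*, *Apcdd1* and *Nefl*, at the long distances of 1.34, 1.35 and 1.39, and those of *Gng13* were *Nefl*, *Cplx3* and *Dsg2* at 0.71, 0.776 and 0.803. *Cplx3* encodes a complexin of ribbon synapses in photoreceptors and bipolar cells. Its normalized read count was 107.0 and 72.0 in S100A4-/- against 27.1 and 14.2 in WT libraries, with a log2 fold change of 2.10 and an adjusted p of 1.5e-05 in limma. *Isl1* lay nearest to *Podxl2*, *Mecom* and *Chd5*, *Cabp5* to *Dpm3*, *Plekhm2* and *Slc16a13*, and *Prkca* to *Tmem234*, *Tent5c* and *Megf10*. With 4 libraries many genes share a profile, and the distances rank likeness only.

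The rest of the mGluR6 cascade was examined together with genes of the photoreceptor synapse, as 15 genes besides *Trpm1* and *Gng13*. Of these, 6 were called higher and none lower, where 3.65% of all genes were called higher, and 11 passed on the adjusted p alone. *Rgs7bp*, which was called, and *Rgs7* passed the filter only through S100A4-/- libraries, and the 13 others had 5 called and a median log2 fold change of 0.77. Over all 15 the median was 0.91, and their summed normalized read count was 4018.9 and 3737.8 in S100A4-/- against 2873.5 and 2678.1 in WT libraries. *Grm6*, the receptor mGluR6 itself, rose from 9.40 and 17.52 in WT to 41.96 and 43.58 in S100A4-/- libraries (log2 fold change 1.66, SE 0.42, adjusted p 0.00849 in limma). *Lrit1*, a leucine-rich synaptic protein, rose from 22.97 and 25.18 to 123.32 and 99.32 (2.16, SE 0.28, adjusted p 3.4e-07 in limma). Both subunits listed for the photoreceptor calcium channel, which are not parts of the cascade itself, were among the 6 called as well. *Cacna1f* was at 117.32 and 157.09 in S100A4-/- against 20.88 and 47.08 in WT libraries, and *Cacna2d4* at 193.54 and 166.21 against 66.83 and 60.22. *Rgs9bp*, which anchors RGS proteins in photoreceptors and bipolar cells, rose from 148.27 and 154.38 to 388.79 and 277.70, and *Rgs7bp* from 8.35 and 5.47 to 35.97 and 33.45. The G protein alpha subunit gene *Gnao1* was higher under 2-fold, at 535.22 and 496.61 against 361.28 and 332.85 (adjusted p 0.000141 in limma). *Nyx*, the nyctalopin gene and the most abundant of the list, was at 934.28 and 872.62 against 841.59 and 783.95 (adjusted p 0.317 in limma), and *Ric8b* at 678.23 and 629.38 against 762.23 and 659.13 (adjusted p 0.54 in limma). Several of these genes also serve photoreceptors or other neurons. Without S100A4-/- replicate 1 the count of called genes was 2, and without S100A4-/- replicate 2 it was 3. *Grm6* was called by edgeR but not by DESeq2 or after quantile normalization, nor with either S100A4-/- library or WT replicate 1 left out.

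Transcription factors of bipolar cells gave 5 called higher and none lower of 9 tested besides *Isl1*, and 3 further listed genes, *Lhx3*, *Irx6* and *Sebox*, were not analysed here. Of the 5 called, 4 (*Prdm8*, *Lhx4*, *Bhlhe22* and *Neurod4*) passed the filter on low values only through S100A4-/- libraries and so could enter the test only if higher there, which leaves *Otx2* as the 1 called of 5 others, whose median log2 fold change was 0.08. *Otx2*, a homeodomain factor of photoreceptors and bipolar cells, rose from 22.97 and 15.33 to 85.64 and 59.80 (log2 fold change 1.88, SE 0.34, adjusted p 0.000141 in limma). *Prdm8* was at 40.25 and 36.49 in S100A4-/- against 1.04 and 9.85 in WT libraries, and *Lhx4* at 29.12 and 21.28 against 6.26 and 0. *Bhlhe22*, at 20.55 and 11.15 against 2.09 and 0, and *Neurod4*, at 23.12 and 10.13 against 3.13 and 0, were called with 3 reads or fewer in each WT library, so no fold is given for them. *Nfia*, *Nfib* and *Bhlhe23* had adjusted p of 0.703, 0.954 and 0.977 in limma, and *Nfib* was the most abundant factor of the list. The count of called factors was 0 with either S100A4-/- library left out and 2 without WT replicate 2. On all 4 libraries it was 5 with edgeR, 2 with DESeq2 or quantile normalization (*Otx2* and *Prdm8*), and 0 with limma without trend or with a test against 2-fold.

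Of 19 tested markers of bipolar subtypes, 3 were called higher and none lower, and the median log2 fold change was 0.31. *Strip2*, 1 of the 3, and *Syt2* passed the filter only through S100A4-/- libraries, and the 17 others had 2 called and a median of 0.24. *Kcng4*, a potassium channel subunit, was at 45.39 and 52.70 in S100A4-/- against 3.13 and 15.33 in WT libraries (adjusted p 0.00043 in limma). *Igfn1* was at 76.22 and 71.96 against 26.10 and 35.04, and *Strip2* at 23.12 and 32.43 against 5.22 and 5.47. The most abundant of the list, *Nnat*, which is also a gene of lens and brain, was lower under 2-fold, at 6157.19 and 6444.79 against 8363.67 and 8259.93 (log2 fold change -0.40, SE 0.046, adjusted p 2.81e-08 in limma). With either S100A4-/- library left out no gene of this list was called.

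**Figure D3:**
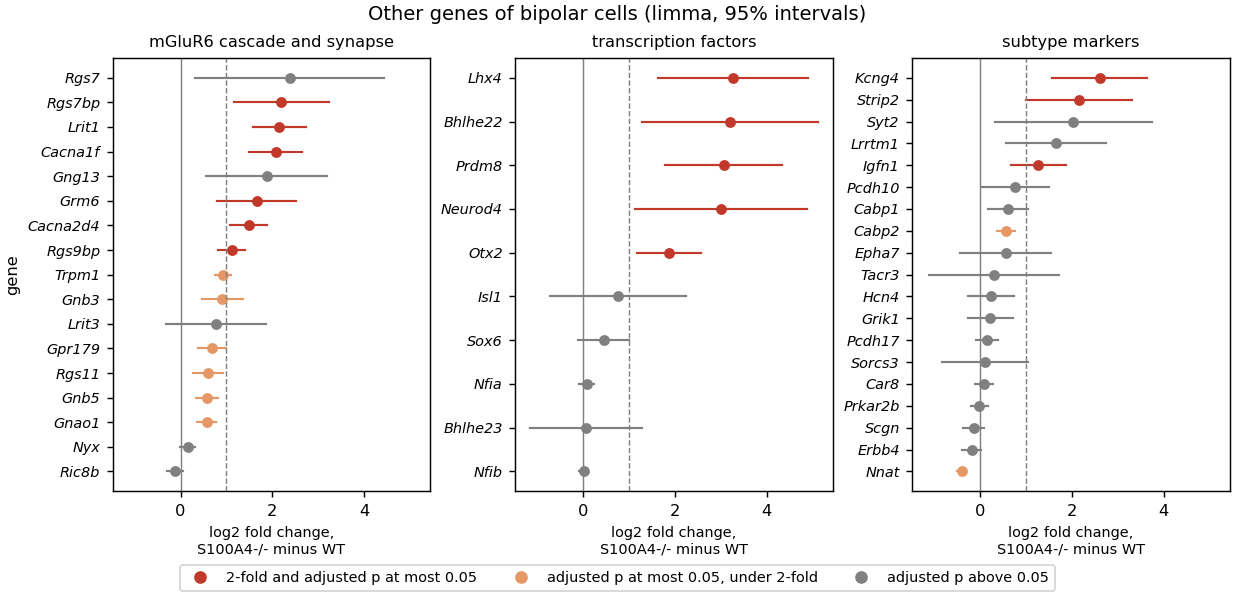
Log2 fold change (S100A4-/- minus WT, 95% intervals) of tested genes of the mGluR6 cascade and synapse, bipolar transcription factors and bipolar subtype markers. The members Trpm1, Gng13 and Isl1 stand in their lists, and a dashed line marks 2-fold. Called genes (red) number 6, 5 and 3, all on the higher side, and the median of the subtype markers is 0.31.

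Markers of other retinal cells moved in the same libraries. All 16 rod markers tested passed on the adjusted p and 15 were called higher, with a median log2 fold change of 2.00. Their summed normalized read count was 13157.0 and 12728.4 in S100A4-/- against 3201.4 and 3277.0 in WT libraries, a ratio of 4.0, and none was at 0 in any library. The most abundant, the rod transducin gene *Gnat1*, was at 3338.93 and 3327.29 against 736.13 and 781.76. Of 12 cone markers 6 were called higher, with summed normalized read counts of 822.1 and 795.6 against 387.4 and 396.4, and *Thrb* was the most abundant. Of 8 amacrine cell markers 7 were called higher, with sums of 2853.4 and 2853.0 against 1846.1 and 1934.7. The most abundant of those, *Tfap2a*, was not called, and *Gad2* was at 0 in WT replicate 1. Of 12 Müller glia markers 7 were called higher, among them the glutamine synthetase gene *Glul*, from 1779.24 and 1922.64 in WT to 5387.33 and 5421.16 in S100A4-/- libraries. *Dkk3* was the most abundant Müller marker and also the one with the smallest difference, and *Crym* was at 0 in WT replicate 2. No gene of these 4 lists was called lower. All rod markers passed the filter in WT libraries as well, while 1 called gene of each of the other 3 lists (*Gngt2*, *Gad2* and *Crym*) passed only through S100A4-/- libraries. Without S100A4-/- replicate 1 the count of called cone markers was 1 and that of amacrine markers 2, and the same counts were found without S100A4-/- replicate 2, and DESeq2 and quantile normalization also called 1 cone marker each, while rod markers called numbered from 15 to 16 whichever library was left out. The part that RNA of retinal cells had in the values of the bipolar genes was not tested.

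**Figure D4:**
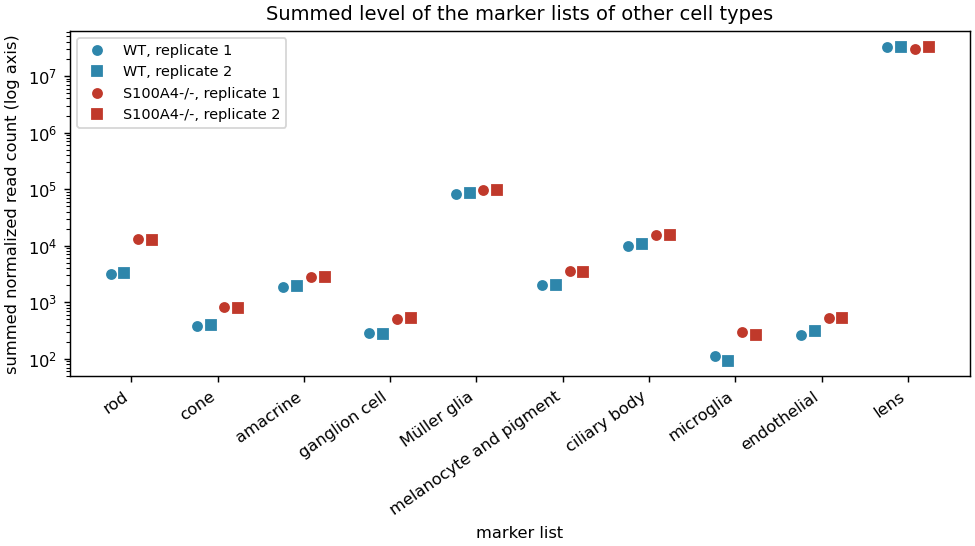
Summed normalized read count (log axis) of the marker lists of other cell types in each library. The rod sum is 4.0 times as high in S100A4-/- libraries and the lens sum is nearly level, with a ratio of 0.96.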

How the data were processed

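Lens RNA of 4 pools was made into stranded poly(A) libraries and sequenced in single-end mode. Per the study's methods, Trim Galore removed adapters and STAR aligned the reads to GRCm38, after which HTSeq counted those with a single locus. The authors dropped genes that stayed under 10 reads in all libraries and scaled the counts by DESeq2 size factors. The deposited values are therefore a signal, a normalized read count with no correction for length, and the authors' versions are not given in the sources used here. Dividing each value by the value of 1 read (0.856 and 1.01 in S100A4-/- and 1.04 and 1.09 in WT libraries) gave whole reads for 100.0% of values within 0.01 read. A floor of 3 reads was worth 2.57 to 3.29 normalized reads, for counting error only.

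Gene identifiers were named from GENCODE M21 (GRCm38), which matched 14782 of 14924. limma 3.58.1 (lmFit, eBayes with trend, R 4.3.3) was run on log2(value + 1) with no covariate, for the 14780 genes that reached 10 in 1 library or more, and p-values were adjusted by Benjamini-Hochberg over all of them. Fold changes are on this log2 scale, where the pseudocount draws low values together, and where the mean of logs gives a low library more weight than a ratio of means does. With 2 pools a group, p-values rest on a spread shared over genes, and an exact permutation test of 2 against 2 could not reach 0.05. edgeR 4.0.16 (quasi-likelihood) and DESeq2 1.42.0, run on the recovered reads, and 14 other alternatives are treated in the closing section. On simulated counts with 200 changed genes, limma recovered 100 of 100 at a log2 fold change of 1.5 and 100 of 100 at 2, with 1 unchanged gene called over 14452 tested. The changed genes were drawn only from genes with a mean of at least 50, and no smaller fold was simulated. This recovery therefore does not cover *Pcp2*, *Gng13* and *Isl1*, which lie under that mean, or a fold as small as that of *Trpm1*.

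The members and the 21 gene lists were chosen with earlier results of these data known. After results were computed 1 gene was taken out of each of 2 lists, the bipolar transcription factors and the calcium-binding proteins. Some genes are not reported here. Genes were named by rule: all members, called genes of the cascade and transcription factor lists, and otherwise the 3 most abundant of each list and its 2 largest and 2 smallest fold changes. *Gnao1*, *Igfn1*, *Pmel*, *Slc24a5*, *Syt2* and *Trpm6* fall outside it and were chosen after their values were seen. Promoter sequences are those of RefSeq (GRCm38.p6), found for all 7 members.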

Additional observations from a re-analysis of the deposited data

How the results depend on the processing

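Across 16 alternatives no direction of a member reversed, and *Prkca* (log2 fold change 0.01 to 0.07), *Cabp5* (-0.39 to -0.18) and *Isl1* (0.28 to 0.87) never passed the threshold. The number of members called was 0 with a pseudocount of 0.5, a mean of at least 50 (which left 3 members), TMM factors, quantile normalization, limma without trend, edgeR, DESeq2 and a test against 2-fold (treat), and ranged from 0 to 2 with 1 library left out. For *Pcp2* the log2 fold change without a call was 2.38, 2.19, 1.72, 2.19, 1.73, 1.76 and 2.19 under the same settings other than the mean filter. With 1 library left out it ran from 0.84, without a call, to 3.53, with one. A fit with the replicate number as a block called 2 members, with *Gng13* at 1.88 (adjusted p 0.0415 in limma), and 591 genes in all against 550 without it. The pairing could not be established from 2 pairs, since deviations of same-numbered libraries correlated at 0.012 over all genes tested and 0.056 over genes with a mean of at least 50. The adjusted p of *Trpm1* in limma was 0.0958 without trend. With 1 library left out *Trpm1* ranged from 0.80 to 1.04 and *Gng13* from 0.96 to 2.80. Genes called numbered 287 with a mean of at least 50, 181 without trend, 171 with treat and 172 to 559 with 1 library left out, where the lone library is assumed to vary like the other group. Unless the alternative tests fewer genes or libraries, the cause was not tested. Of the 21 lists, the rod markers (13 to 16 called), lens markers and protein kinase C genes (0 each) gave like counts under all 16. Each other list moved under 1 or more, such as the cascade (2 to 7), the transcription factors (0 to 5), the subtype markers (0 to 4) and the cone markers (1 to 6). These counts include members. The GoLoco and Purkinje list moved only through *Pcp2*, with 0 of its 7 other tested genes called under every setting. The depth limits *Pcp2*, *Gng13* and *Isl1*, which had at most 27 reads in any library.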

Other observations

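Markers of cells outside the neural retina were also examined beside the bipolar genes. Of 9 ciliary body markers tested, 5 were called higher in S100A4-/- lenses and none lower, and *Opn3* and *Cdh2* were lower under 2-fold with adjusted p of 0.00322 and 0.0332 in limma. *Col18a1*, a collagen gene, rose from 834.28 and 933.95 in WT to 4462.46 and 4336.73 in S100A4-/- libraries, and *Slc4a5*, a bicarbonate transporter gene, from 78.31 and 119.34 to 512.10 and 509.79. The summed normalized read count of the list was 15766.3 and 15727.4 against 10027.0 and 10622.7. Of 8 microglia markers 4 were called higher, with sums of 304.9 and 266.5 in S100A4-/- and 112.8 and 93.1 in WT libraries, and *Csf1r* was the most abundant. With either S100A4-/- library left out no microglia marker was called. Of 9 endothelial markers 2 were called higher, among them *Kdr*, at 74.50 and 60.81 against 9.40 and 9.85, and 1 was called without S100A4-/- replicate 1.

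Among neurons of the inner retina, 3 of 9 ganglion cell markers were called higher, with *Rbpms* highest in fold change at 35.11 and 51.69 in S100A4-/- against 7.31 and 15.33 in WT libraries. *Pou4f1*, the most abundant of that list, was at 184.97 and 157.09 against 149.31 and 147.81 (adjusted p 0.584 in limma), and none of the list was called with either S100A4-/- library left out. Of 5 horizontal cell markers 1 was called higher, *Tfap2b*, at 48.81 and 41.55 against 2.09 and 10.95, and it too was not called with either S100A4-/- library left out. *Prox1*, the most abundant of these and also a gene of lens fibers, was at 18999.94 and 18797.21 against 20306.70 and 20683.76 (adjusted p 0.0861 in limma). Of 9 olfactory neuron markers, among them *Gng13*, 1 was called higher. This was *S100a5*, at 2247.93 and 2461.77 in S100A4-/- against 8.35 and 8.76 in WT libraries (log2 fold change 7.94, adjusted p 1.72e-30 in limma), which like *Kdr* passed the filter on low values only through S100A4-/- libraries, and with either WT library left out 2 of the 9 were called. *Omp*, the olfactory marker protein gene, was outside the rule for named genes and is given for its role, at 19.70 and 14.19 against 8.35 and 12.04 (adjusted p 0.58 in limma).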
